A study of Arabidopsis thaliana with 12 samples.

Results

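The genes described here had their lowest signal in 8C nuclei of the Arabidopsis root cortex and a higher one again in 16C nuclei. They are 150 of the 13513 probe sets that the probe table assigns to a single gene. The 3 8C arrays lay below the 9 others in 3.21% of these probe sets. A probe set was eligible when its highest 8C array lay below the lowest of the 9 arrays of the other classes, its 16C mean was at least 0.5 log2 above its 8C mean, and its 4C mean was not 0.4 log2 or more above every other class mean. Of the 186 probe sets (1.38%) that met these conditions, the 150 with the largest gap between the 8C mean and the next lowest class mean were kept. Members were thus chosen by their measured values on all 12 arrays. The low point in 8C and the higher signal in 16C are the choice itself and are given below as descriptions, without a test.

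Roots of Arabidopsis thaliana, ecotype Col-0, were taken at an age of 5 days and their nuclei released. All plants carried pCO2:YFP-H2B, a histone H2B fused to yellow fluorescent protein and driven in the cortex, so every class carries this transgene; the labels used here do not say which H2B gene it holds. Nuclei with fluorescence were separated into classes of 2C, 4C, 8C or 16C DNA content, with 3 arrays per class and 12 in all, and RNA of about 200000 nuclei of a class was extracted per sample. Values are log2 signals of ATH1 probe sets as the authors deposited them, and the small number of arrays limits the precision of each value.

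In the endocycle a cell replicates its DNA and skips mitosis, so that its DNA content doubles with each round. Root cortex cells enter it as they leave the dividing zone and enlarge. Ribosomal proteins form the ribosome together with ribosomal RNA and are made in large amounts in growing cells, chaperonins are barrel-shaped complexes in which newly made proteins fold, and linker histones bind the DNA between nucleosomes and compact chromatin.

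The arrays were not equally close to each other. Across all probe sets, which are not independent replicates, 16C replicates 1 and 2 correlated at 0.996, whereas the 2C arrays correlated with each other at 0.937 to 0.973. Each 2C array was nearest to the 4C array of the same number, with r = 0.9421, 0.9744 and 0.9775 for replicates 1, 2 and 3. Within 2C these arrays reached at most 0.941, 0.9735 and 0.9735. For 4C replicate 3 the nearest array was likewise 2C replicate 3. The array nearest to 8C replicate 2 was 16C replicate 3 (r = 0.986), and neither correlated as well with an array of its own class (at most 0.979 for the 8C array and 0.982 for the 16C array). The choice of members rests on both arrays. Without 8C replicate 2 the conditions were met by 298 probe sets, without 16C replicate 3 by 272, and without both by 377, with 149, 147 and 149 of the 150 members among them. Leaving out an array can only loosen the condition on the order of arrays, so the number of members that stay is largely built in. Marker genes of the labelled tissue gave no uniform picture. The 4 measured genes of a cortex list averaged 4.52 to 5.42 on the 2C arrays, 5.22 to 5.63 on those of 4C, 5.31 to 5.52 on those of 8C and 4.81 to 5.04 on those of 16C, where the median of all single-gene probe sets was between 4.95 and 5.08 on every array. In the order 2C, 4C, 8C and 16C, AT1G62510 had class means of 5.72, 6.61, 6.86 and 5.65, and JACKDAW (JKD), a regulator of ground tissue patterning, had 5.51, 5.94, 6.34 and 5.70, so both were highest in 8C. AT1G09750 had 4.86, 4.68, 4.32 and 4.24, and AT1G62500 had 4.03, 4.25, 4.02 and 4.14. Both were thus dim, below the lowest of these array medians (4.95) in every class.

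Most members followed a single order. In 121 of the 150 the class means ran from 2C, the highest, through 4C and 16C to 8C. Another 15 had 4C above 2C, 10 had 16C above 4C, 3 had 2C below both 4C and 16C with 4C the highest, and 1, AT3G22620, had 16C as its highest class. In the order 2C, 4C, 8C and 16C, the medians over the members of the class means were 8.36, 7.91, 6.14 and 6.96 (log2 signal), and groups of 4 class means below keep this order. The 8C minus 4C difference had a median of -1.57 (log2, range -4.14 to -0.58), and the 16C mean exceeded the 8C mean by a median of 0.80 (range 0.56 to 2.74). The signal in 16C therefore covered part of the distance to 4C, with a median 16C minus 4C difference of -0.74. Each array pools many nuclei, so fewer nuclei with a transcript and less of it per nucleus cannot be told apart.

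**Figure D1:**
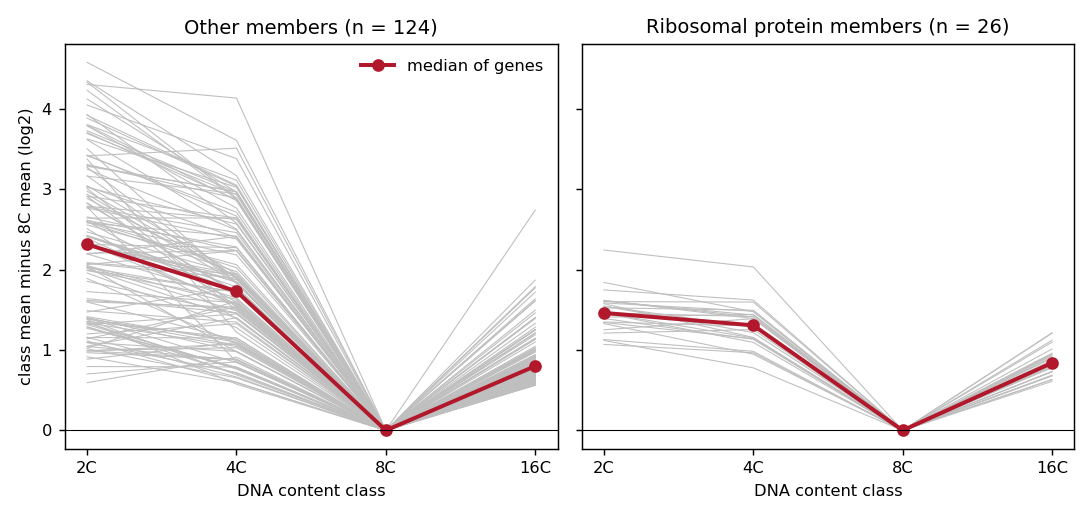
Class means of each member minus its own 8C mean (log2, vertical axis) by DNA content class (horizontal axis), for the 124 other members on the left and the 26 members on the ribosomal protein list on the right; thin lines are genes and the thick line is their median. All lines meet at 0 in 8C by choice, the median of the other members stands higher in 2C than that of the ribosomal members, and the medians in 16C are 0.80 and 0.84.

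The largest gap belonged to a chromatin gene. HIS1-3 (AT2G18050), a linker histone known in Arabidopsis for its induction by drought and abscisic acid, gave 8.72, 8.30 and 9.64 in 2C, 8.61, 7.89 and 8.90 in 4C, 4.49, 7.48 and 4.75 in 8C, and 7.78, 7.56 and 9.61 in 16C. Replicate 2 stood far above the other 8C arrays and just below the lowest 16C array, and replicate 3 stood highest in 16C. The 16C mean exceeded the 8C mean by 2.74 (6.69-fold), and against 2C it differed by -0.57 ± 0.79 (moderated SE, limma, adjusted p = 0.657, 95% interval -2.32 to 1.18). A list of linker histones was written after the members had been seen. All 3 of its loci had their 3 8C arrays below the 9 others, beside 3.21% of all single-gene probe sets. The class means of AT1G06760 and AT2G30620 were closer together than those of HIS1-3, with 9.59, 9.06, 8.17 and 8.57, and with 8.67, 8.23, 7.74 and 8.21.

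Of the core histones, HTB4 (AT5G59910), an H2B gene, was a member with a gap close to the limit. Its signals were 8.67, 8.05 and 7.90 in 2C, 8.11, 8.05 and 7.84 in 4C, 6.74, 6.76 and 7.05 in 8C, and 7.62, 7.42 and 7.20 in 16C. It fell in 16C relative to 2C (log2 difference -0.79 ± 0.20, limma adjusted p = 0.0235). PROLIFERA (PRL, AT4G02060) encodes MCM7, a subunit of the helicase that opens DNA for replication. It gave 5.05, 4.90 and 4.71 in 16C, against 8.23, 7.96 and 6.85 in 2C, and was between in 4C (5.64, 5.55 and 5.38) and lowest in 8C (4.27, 4.34 and 4.30). PRL fell by 2.80 ± 0.28 in 16C relative to 2C (limma adjusted p = 0.00037), and its 16C mean exceeded its 8C mean by 0.58. The replication list had 3 measured genes, all 3 of which fell in 16C relative to 2C, beside 6.93% of all single-gene probe sets. All 3 had 8C as the lowest class mean, beside 22.3% of all single-gene probe sets, but in ICU2, a subunit of DNA polymerase alpha, 8C and 16C lay close together, at 3.87 and 3.89.

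Ribosomal protein genes were the largest group that could be named among the members. The gene tables used here give a function to few loci, so 222 cytosolic ribosomal protein loci were listed by hand from general knowledge of the Arabidopsis genome, after the members had been seen. The TAIR10.1 gene table names 37 of the 222 as such, but 0 of the 129 that were measured, so membership of this list rests on that knowledge alone and the counts are descriptions. The list made up 26 of the 150 members (17.3%) and 0.955% of the single-gene probe sets. Before the limit of 150, 29 of its 129 measured genes (22.5%) met the conditions, beside 1.38% of all single-gene probe sets. Among probe sets with a mean signal of at least 7, a limit set after seeing the data, 22 of 63 (34.9%) met them, beside 3.59% of all 3012.

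The ends of the range are shown by 2 loci of this list. AT5G15200 gave 9.72, 9.96 and 8.88 in 2C, 9.14, 10.13 and 8.61 in 4C, 7.75, 7.77 and 8.19 in 8C, and 9.53, 9.46 and 8.36 in 16C. AT4G16720, with the smallest gap of the 26, gave 11.31, 11.02 and 10.56 in 2C, 10.93, 11.47 and 10.64 in 4C, 9.52, 9.99 and 9.76 in 8C, and 10.42, 10.38 and 10.30 in 16C. In AT5G15200 the 2C, 4C and 16C arrays overlapped, whereas in AT4G16720 the 16C arrays lay just below those of 2C and 4C; in both the 8C arrays stood lowest. The 16C mean exceeded the 8C mean by 1.21 and 0.61 in these loci, which are also the ends of the range over the 26 (median 0.84).

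The choice does not order 2C and 16C, and this comparison was tested. It uses arrays that also entered the choice, so the shares called among members are not free of that choice. Of the 248 genes with all 8C arrays lowest that failed another condition, 39.1% were called lower in 16C. None of the 26 ribosomal members passed the test of 16C against 2C (limma, adjusted p under 0.05), beside 6.93% of all single-gene probe sets called lower, and 8 had an unadjusted p under 0.05. All 26 had a 16C mean below the 2C mean, with a median difference of -0.62 and a range of -1.12 to -0.24, so a missed threshold does not show equal levels. Of the other 124 members, 79 (63.7%) were called lower in 16C, with a median difference of -1.46. The standard errors were alike, with medians of 0.351 for the ribosomal and 0.313 for the other members. Whether the 26 and the other 124 differ was not tested.

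The conditions and the gap separated the members from the other ribosomal loci, so smaller differences in those loci are partly built in. Of the 103 ribosomal loci that were not members, 88 had their lowest class mean in 8C, and over all 129 this share was 88.4%, beside 22.3% of all single-gene probe sets. The 16C mean exceeded the 8C mean in 95 of the 103, with a median of 0.30. That part depended on replicate 3 of 16C, which was the lowest 16C array in all 26 ribosomal members and in 100 of the 150 members. With this array alone set against the 8C mean, 55 of the 103 were higher in 16C, and without it 69 ribosomal loci met the conditions in place of 29. The median signal of the 26 members was 8.95, 9.06 and 8.31 on the 2C arrays, 8.53, 9.09 and 8.16 on the 4C arrays, 7.28, 7.31 and 7.33 on the 8C arrays, and 8.45, 8.37 and 7.77 on the 16C arrays. Replicate 3 was thus the lowest array in 2C, 4C and 16C alike but not in 8C.

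**Figure D2:**
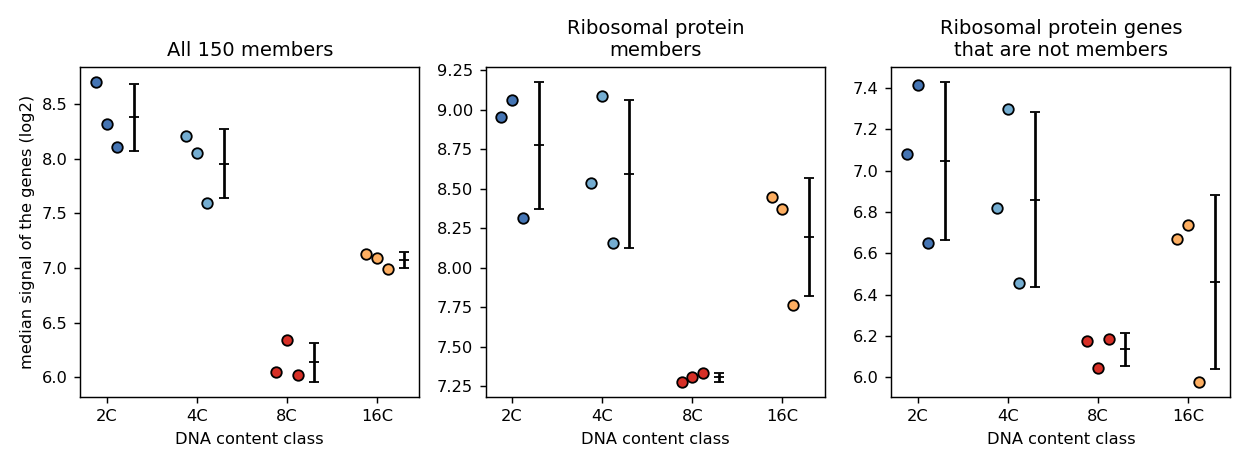
Median log2 signal (vertical axis, scaled separately in each panel) on each array by DNA content class (horizontal axis), for all 150 members, the 26 ribosomal members and the 103 ribosomal loci that are not members; points are the 3 arrays, bars the mean ± SD of 3. Among the members the 16C arrays lie close together between 6.99 and 7.13, whereas among ribosomal loci that are not members 16C replicate 3 (5.98) lies below the 8C arrays.

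Chaperonin genes of both the plastid and the cytosol were among the members. Cpn60beta3 (AT5G56500), a subunit of the plastid chaperonin, gave 7.92, 7.58 and 7.03 in 2C, 7.27, 7.56 and 6.78 in 4C, 4.62, 5.77 and 6.05 in 8C, and 7.27, 7.12 and 6.45 in 16C. Cpn60beta2 (AT3G13470), a subunit of the same complex, gave 7.85, 7.40 and 7.10 in 2C, 6.66, 7.16 and 6.77 in 4C, 5.64, 6.52 and 6.31 in 8C, and 7.05, 7.18 and 6.69 in 16C. In both genes replicate 1 was the lowest 8C array and the 16C arrays overlapped with those of 4C. Neither was called in 16C against 2C, with differences of -0.56 ± 0.39 (adjusted p = 0.356) and -0.47 ± 0.26 (adjusted p = 0.252) by limma. The third measured locus of this family, Cpn60beta4, had class means of 4.69, 4.46, 4.35 and 4.24 and no low point in 8C. Of a list of the cytosolic CCT chaperonin, added after seeing the members, 8 loci were measured. All 8 had their lowest class mean in 8C, beside 22.3% of all single-gene probe sets. Members among the 8 were AT1G24510 and AT3G11830, with class means of 8.02, 7.85, 6.97 and 7.59, and of 7.17, 7.26, 6.18 and 6.78.

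Several members belong to the cytoskeleton or bind calmodulin. VIIIB (AT4G27370), a class VIII myosin, gave 6.79, 6.78 and 6.28 in 16C, against 9.03, 9.30 and 8.45 in 2C, with 8.99, 9.08 and 7.76 in 4C and 5.33, 5.57 and 6.01 in 8C. It fell by 2.31 ± 0.35 in 16C relative to 2C (limma adjusted p = 0.00268). WLIM2a (AT2G39900), a LIM protein that bundles actin filaments, had class means of 9.19, 8.57, 6.78 and 7.37, and its 16C mean lay 1.82 ± 0.41 below that of 2C (limma adjusted p = 0.0168). IQD33 (listed as iqd33, AT5G35670), of a family of calmodulin-binding proteins, fell by 2.19 ± 0.53 (limma adjusted p = 0.021). KICP-02 (AT3G50240), a kinesin motor, fell by 2.15 ± 0.29 (limma adjusted p = 0.00153). For these 4 genes the signal in 16C was nearer to that in 8C than to that in 2C.

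A further set of members acts in protein breakdown. SBT4.12, a subtilisin-like protease, gave 10.94, 10.56 and 11.66 in 2C, 11.15, 10.06 and 9.67 in 4C, 8.03, 7.71 and 7.66 in 8C, and 9.80, 9.69 and 9.06 in 16C. Its 16C mean exceeded the 8C mean by 1.72 (3.30-fold) and lay 1.53 ± 0.38 below the 2C mean (limma adjusted p = 0.0254), which passed in 18 of 26 other settings. UBC29, a ubiquitin-conjugating enzyme, gave 6.52, 6.31 and 6.18 in 16C, against 8.29, 7.73 and 7.90 in 2C, with 5.49, 6.02 and 5.52 in 8C. ATL8, of a family of RING-type ubiquitin ligases, had class means of 10.0, 8.54, 7.00 and 7.74. The serine carboxypeptidase-like genes scpl31 and scpl48 had class means of 6.44, 5.60, 4.05 and 4.74, and of 10.13, 10.07, 8.53 and 9.13. These 5 genes, grouped after their values were seen, fell in 16C relative to 2C, as 52.7% of all members did, by between 1.0 (scpl48, limma adjusted p = 0.0199) and 2.28 (ATL8, limma adjusted p = 0.00303).

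Among metabolic genes, MGL (AT1G64660), methionine gamma-lyase, which breaks down methionine, gave 11.67, 11.80 and 11.48 in 2C, 10.60, 10.90 and 9.97 in 4C, 7.75, 7.35 and 7.47 in 8C, and 9.03, 8.89 and 8.83 in 16C. No 2 classes overlapped, and 16C lay 2.73 ± 0.21 below 2C (limma adjusted p = 0.000177). FMO, a flavin monooxygenase, fell by 2.59 ± 0.27 in 16C relative to 2C (limma adjusted p = 0.000409), with class means of 9.48, 7.80, 5.97 and 6.89. MSRB5, a methionine sulfoxide reductase that repairs oxidised methionine, and TRI, listed as a tropinone reductase, were not called, with differences of -0.76 ± 0.36 (adjusted p = 0.19) and -0.56 ± 0.33 (adjusted p = 0.28). AT3G25570, which stands on a hand-written list of S-adenosylmethionine decarboxylases, enzymes of polyamine synthesis, gave 7.65, 9.18 and 9.33 in 2C, 7.82, 8.49 and 8.04 in 4C, 5.14, 5.32 and 4.82 in 8C, and 7.03, 7.02 and 6.84 in 16C. Its 16C mean exceeded the 8C mean by 1.87 and lay 1.76 ± 0.38 below the 2C mean (limma adjusted p = 0.0129), and its first 2C array was much lower than the other two. Of the 3 measured genes of that list, 2 were called lower in 16C than in 2C, AT3G25570 and SAMDC, beside 6.93% of all single-gene probe sets. SAMDC had class means of 11.98, 11.83, 11.66 and 11.48. AT5G15950 had class means of 4.17, 4.28, 4.42 and 4.39 and was not called.

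**Figure D3:**
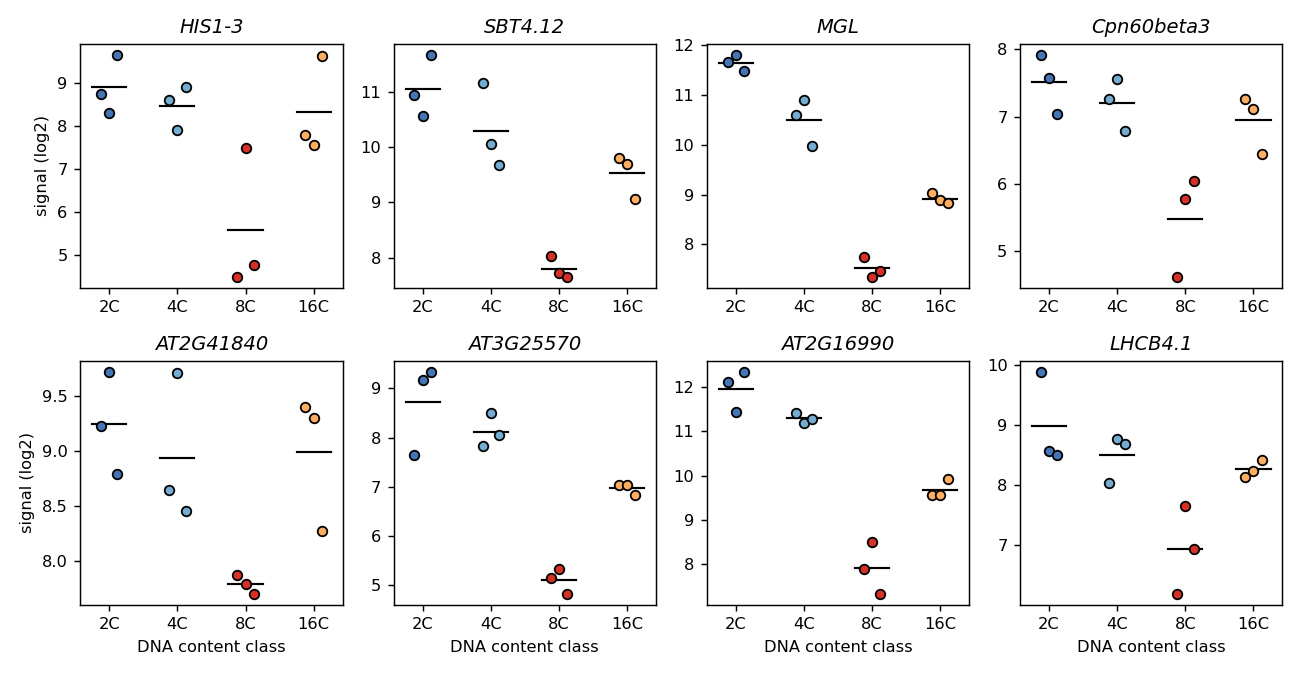
Log2 signal (vertical axis, scaled separately in each panel) of 8 members on each array by DNA content class (horizontal axis); points are arrays and bars class means of 3. MGL and AT2G16990 have 16C arrays well below those of 2C, whereas in AT2G41840 the 16C replicates 1 and 2 (9.41 and 9.31) lie within the range of the 2C arrays and replicate 3 (8.28) lies lower.

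Other members with a symbol act in signalling, at membranes or in transcription. TET5, a tetraspanin of the plasma membrane, gave 5.14, 5.51 and 5.66 in 16C, against 7.73, 7.05 and 8.04 in 2C, with 5.67, 5.59 and 5.78 in 4C and 4.86, 4.81 and 4.80 in 8C. Its step between 2C and 4C was the wider part of its profile, and it fell by 2.17 ± 0.22 in 16C relative to 2C (limma adjusted p = 0.00037). WNK9, a protein kinase of the WNK family, gave 6.38, 6.42 and 6.21 in 16C, against 9.21, 9.13 and 9.58 in 2C, and fell by 2.97 ± 0.34 (limma adjusted p = 0.000602). RALFL32, a small secreted signal peptide of the RALF family, fell by 1.29 ± 0.30 (limma adjusted p = 0.0198). ZIP6, of a family of metal ion transporters, was not called (-0.39 ± 0.18, limma adjusted p = 0.181). PHAVOLUTA (PHV), a class III homeodomain-leucine zipper transcription factor known for its role in organ and vascular patterning, gave 7.47, 7.48 and 8.00 in 16C, against 9.06, 9.05 and 9.07 in 2C, with 6.36, 7.39 and 6.48 in 8C. PHV fell by 1.41 ± 0.25 in 16C relative to 2C (limma adjusted p = 0.00502).

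A few members relate to organelles. LHCB4.1 (AT5G01530), an antenna protein of photosystem II, gave 9.88, 8.56 and 8.51 in 2C, 8.05, 8.77 and 8.69 in 4C, 6.20, 7.66 and 6.94 in 8C, and 8.14, 8.23 and 8.42 in 16C. Of the 6 measured genes of photosynthesis it was the only member, and the means of PSAN and LHCB4.2 were lowest in 16C. These 6 genes averaged 5.72 to 8.34 on the 2C arrays, which were thus far apart. On the arrays of 4C, 8C and 16C they averaged 5.66 to 6.68, 5.13 to 6.36 and 5.77 to 6.32. The part of such transcripts in the 16C minus 2C differences was not tested. The mitochondrial genes nad4, for a subunit of respiratory complex I, and ccb382, for cytochrome c maturation, had class means of 8.20, 7.64, 6.80 and 7.74, and of 8.09, 7.41, 6.71 and 7.42. They are 2 of 92 measured probe sets of the plastid and mitochondrial genomes. Of the 92, 64 had their lowest class mean in 8C, beside 22.3% of all single-gene probe sets. Transcripts of these genomes are made outside the nucleus. Their median per array ranged from 6.47 to 7.88 over 2C, 5.54 to 7.08 over 4C, 5.44 to 6.62 over 8C and 6.74 to 7.03 over 16C, and its part in the members' profile was not tested.

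Of the members known only by a locus code, 124 in all, AT2G16990 had the widest gap after AT3G25570. It gave 12.11, 11.44 and 12.33 in 2C, 11.41, 11.19 and 11.29 in 4C, 7.89, 8.50 and 7.34 in 8C, and 9.56, 9.57 and 9.92 in 16C. Its 16C mean lay 1.77 above that of 8C and 2.28 ± 0.29 below that of 2C (limma adjusted p = 0.00109). AT1G69080 gave 7.66, 7.73 and 7.18 in 16C, against 11.31, 10.29 and 9.86 in 2C, with 5.47, 6.26 and 5.99 in 8C, and AT2G36650 gave 9.80, 9.66 and 9.68 in 16C, against 10.38, 12.71 and 12.63 in 2C. In both, no 16C array reached the lowest 2C array. Of the genes with the widest gaps that fell in 16C, AT1G14730 lay nearest to its 2C level, with 8.24, 7.99 and 7.34 in 16C, against 8.92, 8.48 and 9.53 in 2C (-1.12 ± 0.32, limma adjusted p = 0.0402, which passed in 9 of 26 other settings). AT3G11930, AT3G21770, AT2G37050 and AT1G14480 completed the widest gaps, with 16C means 1.5, 1.41, 1.40 and 1.28 above those of 8C. Of these, AT3G11930 was not called in 16C against 2C (-1.10 ± 0.40, limma adjusted p = 0.0917).

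Whether the 16C signal differed from that of 2C was tested with limma over all 22746 probe sets. None of the 150 members was higher in 16C and 79 (52.7%) were lower, beside 5.75% of the single-gene probe sets called higher and 6.93% called lower (6.18% and 8.05% of all probe sets). Members were brighter than most genes, and 93 of them had a mean signal of at least 7. Of all 3012 single-gene probe sets at or above that level, 12.1% were called lower. The median difference over the members was -1.12 (range -3.67 to 0.50), beside 0.05 over all single-gene probe sets. In 102 members every 16C array lay below every 2C array, beside 14.7% of single-gene probe sets, in 0 every 16C array lay above, beside 20.1%, and in 48 the arrays overlapped. The choice uses arrays of both classes and sets no order between them, but it takes genes with a high 2C signal relative to 8C. Of the 248 genes with all 8C arrays lowest that failed another condition, 97 (39.1%) were likewise called lower in 16C, so a large share of lower calls goes with the low point in 8C also outside the 150. The share among the 36 genes beyond the limit was 25.0%.

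The widest falls in 16C relative to 2C were those of AT3G48970 and AT5G50010. AT3G48970 gave 5.08, 4.78 and 5.06 in 16C, against 10.65, 8.21 and 7.07 in 2C, a difference of -3.67 ± 0.75 (limma adjusted p = 0.0103), with 2C arrays that were far apart. AT5G50010 gave 6.46, 6.66 and 6.56 in 16C, against 10.61, 9.37 and 9.42 in 2C (-3.24 ± 0.34, limma adjusted p = 0.000426). AT1G63420, AT1G12080, AT1G67720, AT1G77020, AT5G03610 and WNK9 followed with differences of -3.10 to -2.97. AT1G63420 gave 7.69, 7.41 and 7.73 in 16C, against 11.25, 10.62 and 10.25 in 2C, with 6.41, 6.43 and 6.23 in 8C. AT5G03610 gave 6.65, 6.63 and 6.86 in 16C, against 9.26, 9.98 and 9.85 in 2C, with 5.51, 5.59 and 5.29 in 8C. In both the 8C and 16C arrays lay apart from each other, but closer to each other than to those of 2C. Of the 79 members called lower, 56 were called in at least 20 of 26 other settings. At the other end, AT3G22620 gave 8.83, 8.89 and 7.28 in 16C, against 8.09, 7.70 and 7.70 in 2C, which was not called (0.50 ± 0.46, limma adjusted p = 0.5, 95% interval -0.53 to 1.52). Its replicate 3 lay below all 2C arrays while the other two lay above them. The 16C mean was within 0.5 log2 of the 2C mean in 31 members and at least 1 log2 below it in 81.

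**Figure D4:**
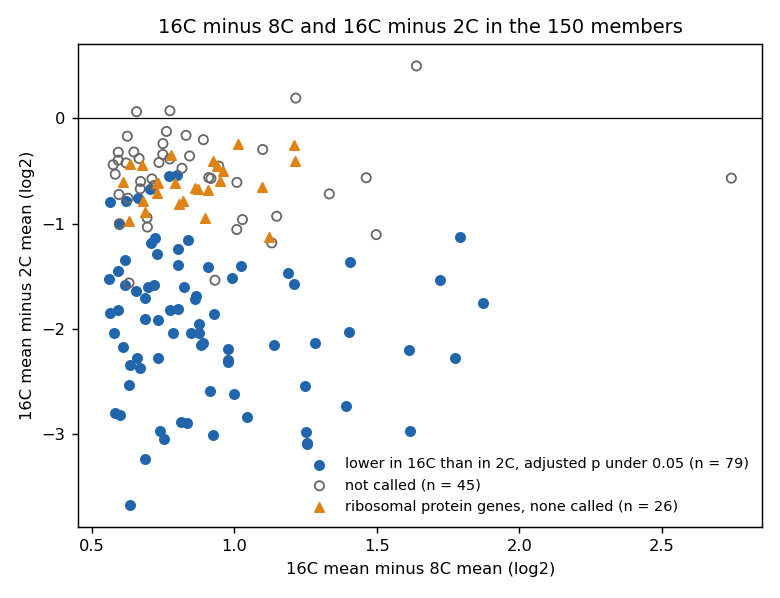
Each of the 150 members by its 16C mean minus 8C mean (horizontal axis, log2) and its 16C mean minus 2C mean (vertical axis, log2); filled circles are the 79 members called lower in 16C than in 2C by limma (adjusted p under 0.05), open circles members not called, and triangles the 26 ribosomal loci, of which 0 were called. Only 4 members lie above the line of equal 2C and 16C means, and the ribosomal loci lie between -1.12 and -0.24.

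The conditions were also applied with an array left out. The left-out array was then set against arrays that the conditions had already selected to be high or low, so a high share is partly built in and the counts are a description. When the conditions were applied without 8C replicate 1, 2 or 3, the array left out lay below the lowest of the 9 other arrays in 167 of 194 (86.1%), 207 of 298 (69.5%) and 180 of 241 genes (74.7%). Over all single-gene probe sets these shares were 14.3%, 9.23% and 9.98%. Without 16C replicate 1, 2 or 3, the array left out lay above the highest 8C array in 180 of 184 (97.8%), 178 of 189 (94.2%) and 195 of 272 genes (71.7%), beside 22.1%, 24.4% and 30.2% of all single-gene probe sets. The lowest shares belonged to 8C replicate 2 and 16C replicate 3, each of which correlated best with the other. At the edge of the limit, AT4G34600, HTB4 and AT1G56210 had the smallest gaps among the members (0.56 for AT1G56210), and AT2G32060, AT2G29660 and AT5G47890 followed outside with 0.56 each.

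Features that the choice did not use gave few contrasts. The members were spread over chromosomes 1 to 5 with 42, 14, 32, 23 and 37 genes, and chromosome 2 held 9.33% of them beside 16.2% of measured genes. No 2 members were neighbours in the TAIR10.1 gene order. Median gene length was 1966.5 bases over 148 members and 2117 bases over all measured genes, and 1635.5 bases over the ribosomal members. Probe sets that can detect several transcripts made up 0 of the members and 2.09% of the single-gene probe sets. The gene AT1G31050 had another probe set, which was dim, with class means of 4.36, 4.69, 4.22 and 4.33 and its lowest mean also in 8C. Protein and promoter sequences were not analysed here.

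Of 29 further gene lists, 18 had measured genes but no member, 7 had no measured gene, and 4 held the members PRL, HTB4, LHCB4.1, nad4 and ccb382 already described. Measured means here that the probe table assigned a probe set to that gene alone. This table gave no gene to 8730 of the 22746 probe sets, so a gene counted as not measured may still be on the array. The mitosis list had no member. Of its 7 measured genes 6 had their lowest class mean in 8C, beside 22.3% of all single-gene probe sets. In all 7 the 4C mean was the highest. The conditions bar genes whose 4C mean stands 0.4 log2 or more above every other class. AUR2, an Aurora kinase, was barred in this way, with 7.18, 8.99, 5.75 and 7.27. AUR1, with 7.32, 7.66, 6.13 and 6.51, and the dim genes KINESIN-12B and HTR12 were not, and failed another condition. Markers of a neighbouring tissue moved between 8C and 16C. The 6 measured epidermis and root hair genes averaged 5.19 to 5.39 on the 2C arrays and 4.92 to 5.11 on those of 4C. On the arrays of 8C and 16C they averaged 4.74 to 5.10 and 5.77 to 6.01. All 6 had a higher mean in 16C than in 8C, though XTH26 was dim, with 3.98 in 8C and 4.05 in 16C. Unlike any member, 4 of the 6 were called higher in 16C than in 2C by limma, beside 5.75% of all single-gene probe sets. Of the 6, AT4G26010 met the conditions and fell beyond the limit of 150. The single measured endodermis gene, GSO1, ranged from 4.78 to 5.18 in 16C, against 5.06 to 5.53 in 8C. No listed stele or root cap gene had a single-gene probe set in the probe table, so these tissues could not be assessed. The part of such cells in the members' profile was not tested.

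Some control probe sets differed between classes. The 3' minus 5' difference of actin compares the signal at the 3' end of its transcript with that at the 5' end, and what set it was not tested. It was 4.70, 4.38 and 4.57 in 2C and 4.03, 3.83 and 3.85 in 4C. In 8C it was 3.37, 3.56 and 3.34, and in 16C it was 3.98, 3.75 and 3.66. It was thus lowest on all 3 8C arrays and followed the same order of classes as most members. The difference of GAPDH did not, with means of 4.85, 5.2, 5.05 and 5.58, and was highest in 16C. The poly-A spikes, bacterial transcripts added to each RNA sample, had class means of 10.9, 10.5, 9.0 and 8.94. With the actin difference as a covariate, 0 members were called lower in 16C than in 2C (22 at an unadjusted p under 0.05), the median difference was -0.39 and the median standard error was 0.778 in place of 0.320. In that fit 0 of all 22746 probe sets were called. With the mean of these spikes as the covariate, 24 members were called lower and the median difference was -1.07. The part in the members' profile of whatever these controls measure was not tested further.

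**Figure D5:**
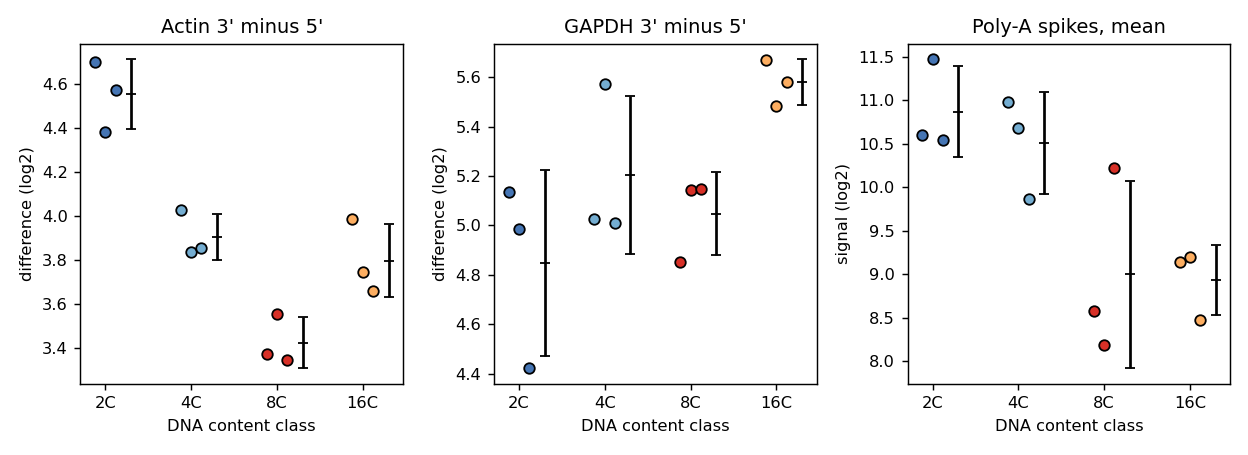
Control measures on each array by DNA content class (horizontal axis): the 3' minus 5' difference of actin, the same difference of GAPDH (both log2, vertical axis) and the mean log2 signal of the poly-A spikes; points are arrays and bars the mean ± SD of 3. The actin difference is lowest in 8C (3.34 to 3.56) and higher in 16C (3.66 to 3.98), whereas that of GAPDH is highest in 16C.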

How the data were processed

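The authors deposited log2 signals of 22746 probe sets and 64 controls on 12 arrays, made by RMA per the submitters' processing notes, with version and settings not stated there. RMA makes the distributions of arrays alike, which hides any change of total RNA per nucleus. Per the labels' protocols, 45 to 100 ng of RNA went through repeated amplification. The controls did not enter the fit. Single genes were named through the platform's table and the TAIR10.1 gene table (13436 of 13513 matched, 148 of the 150 members).

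The 16C minus 2C difference came from the R package limma (version 3.58.1, R version 4.3.3; lmFit, contrasts.fit, eBayes) over all 12 arrays, without a block, with Benjamini-Hochberg adjustment over 22746 probe sets and a threshold of 0.05. The fit was also run on simulated data with independent arrays and the same spread in every class. That setting differs from these arrays, so nothing is drawn from it here. Errors of differences are moderated standard errors. The labels call the arrays biological replicates without naming plants or sorts, so p-values measure the spread between these arrays. The fit treats 16C replicates 1 and 2, which correlated at 0.996, as separate. With them averaged, 54 members were called lower in place of 79. The 2C arrays were more spread than those of 16C, so the shared estimate may understate the spread of 2C and give adjusted p-values that are too low.

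The members and lists were chosen with earlier results of these data known, and 5 lists were added after the members had been seen. Named genes were the 14 members with the largest gap, the 10 with the largest 16C minus 8C difference, the 8 largest called changes in each direction, the 3 genes on either side of the limit, members on a list and members with a symbol; the other ribosomal, CCT, linker histone and marker genes were named after their values were seen. Planned comparisons of promoters and proteins were not run. Alternatives are listed in the closing section.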

Additional observations from a re-analysis of the deposited data

How the results depend on the processing

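In 26 other settings of the 16C against 2C fit, 0 members were called higher, and the median difference kept its sign. The count of members called lower, 79 in the analysis as reported, was 54 to 88 except with the actin covariate (0, median -0.39), the poly-A covariate (24, median -1.07) and with 8C replicate 2 and 16C replicate 3 both left out, a setting chosen after seeing the data (51). The count of 54 came with 16C replicates 1 and 2, which correlated at 0.996, averaged into 1 array. With the actin covariate the median standard error was 0.778 in place of 0.320 and 103 members in place of 146 had a 16C mean below that of 2C. The cause of these losses was not tested, and the settings with arrays averaged or left out also have fewer arrays. The 8 widest falls all lost their call with the actin covariate, with differences of -3.37 (AT1G67720, -3.05 as reported) to -1.11 (AT3G48970, -3.67 as reported). With the poly-A covariate 2 lost it, AT3G48970 at -3.60 and AT1G12080 at -2.60, and with the arrays of 16C and 2C alone AT3G48970 did, at -3.67. Leaving out single arrays gave 55 to 83 members called lower and medians of -1.24 to -0.97. Same-numbered arrays of 2C and 16C did not all deviate together (r = -0.061, 0.325 and 0.226), nor did all 18 same-numbered pairs (9 above 0.1, range -0.487 to 0.489). The 3 pairs of 4C and 16C did (0.162 to 0.489), and those of 2C and 4C gave 0.0998, 0.4095 and 0.4348. Since not all pairs did, the numbers were not taken to pair the arrays. Apart from replicate 1 of 2C and 16C, all pairs with a negative r held an 8C array. Whether same-numbered arrays of 2C, 4C and 16C share a batch was not tested. With the number as a fixed replicate block 80 members were called lower. Scaling to 8 reference genes used array shifts of -0.10 to 0.17 and turned the split over all probe sets to 2736 higher and 1223 lower, in place of 1406 and 1832, with 73 members called lower. The number of genes meeting the conditions was 186 and became 37 when 16C had to exceed 8C by 1 log2, a stricter limit, 183 to 298 without single arrays, and 377 without both named arrays. It was 226 with cyclic loess, 225 with scaling to reference genes and 143 with equal medians. With 3 arrays per class, the smallest difference called among the members was -0.54.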
